A study of Rattus norvegicus with 9 samples.

Results

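The endoplasmic reticulum (ER) chaperones described here are 10 genes, chosen by symbol: Hspa5, Hyou1, Dnajb9, Sdf2l1, Hsp90b1, Calr, Canx, Pdia3, Pdia4 and Pdia6. Each symbol matched 1 row of the deposited table of 32623 genes, and all 10 were among the 11197 genes that were tested, which had FPKM values (read pairs scaled to exonic length and to sequencing depth) of 1 or more in 3 or more libraries. The RNA came from wild-type rat primary aortic vascular smooth muscle cells at passages 4 to 8. In the PDGF-BB+PTUPB group (3 libraries) the cells received 0.5 µM PTUPB, a dual inhibitor of cyclooxygenase 2 and soluble epoxide hydrolase, for 2 h and then the growth factor PDGF-BB for 24 h. The PDGF-BB group (3 libraries) received the growth factor without PTUPB, and the Control group (3 libraries) received an equal volume of the solvent DMSO. The sample labels give 10 ng/mL PDGF-BB and the series design gives 20 ng/mL. Cells of all 3 groups were grown in 20% serum, kept without serum for 12 h and treated in 2% serum. The design asks how PTUPB acts on the PDGF-BB-driven change of smooth muscle cell phenotype. No group received PTUPB without PDGF-BB, so the inhibitor was measured only on top of the growth factor. Whether replicates are independent cultures or different rats is not stated, so a p-value here reflects library-to-library spread that may be technical.

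Secreted and membrane proteins fold in the ER, where chaperones hold unfinished chains, oxidoreductases form and reshuffle disulfide bonds, and lectin chaperones retain glycoproteins until they are folded. The genes of this machinery are classic targets of the unfolded protein response, in which the ER-resident sensors IRE1, PERK and ATF6 react to misfolded protein and ATF6 and the spliced form of XBP1 switch on chaperone genes. In vascular smooth muscle cells this capacity serves the secretion of collagens and other matrix proteins, and the change from a contractile to a synthetic phenotype after PDGF-BB is known for its expanded secretory apparatus.

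Expected counts summed to between 12729187 and 16911050 per library, so 3 counts corresponded to 0.177 to 0.236 CPM (counts scaled to the size of the library). Every chaperone lay far above this floor in every library. Across genes, the deviation of Control replicate 2 and of PDGF-BB replicate 3 from the mean of its group fell with exonic length (Spearman rho -0.40 and -0.38), whereas that of Control replicate 1 and PDGF-BB replicate 2 increased with it (0.36 each); genes are not independent replicates, and these values describe the libraries. Control replicate 2 and PDGF-BB replicate 3 are called the libraries that stand apart, although the trends of the other 2 were nearly as steep. Calls of the chaperones that differ without them are given both ways. Leaving out libraries that deviate can lower the spread by selection. The SE of Calr for PDGF-BB+PTUPB against Control went from 0.086 to 0.060 without them. With all 9 libraries and offsets for exonic length it was 0.070, and why it fell was not tested. A call gained by leaving libraries out is therefore taken here as weaker evidence than one with all 9 libraries. A marker is counted as reaching an FPKM of 1 if it did so in any library. Of 8 smooth muscle markers, 7 reached it (not Des), with summed levels of 2182 to 2441 FPKM in PDGF-BB+PTUPB, 2153 to 2517 in PDGF-BB and 1717 to 2342 in Control libraries. Most of this sum came from Tagln (1063 to 1845 FPKM) and Acta2 (454 to 780), whereas Myh11 had 2.73 to 6.49 and Myocd 0.33 to 1 FPKM. Of 7 endothelial markers 1 reached an FPKM of 1, with Cdh5, Tie1 and Kdr at 0, with summed levels of 15.5 to 17.9 FPKM in PDGF-BB+PTUPB, 13.0 to 14.4 in PDGF-BB and 12.4 to 13.2 in Control libraries. Of 7 macrophage markers 3 reached an FPKM of 1 (Cd14 at 13.0 to 19.6, Cd68 at 2.03 to 4.43 and Lyz2 at 0.53 to 2.09 FPKM), with Ptprc and C1qa at 0 and sums of 23.2 to 24.0 FPKM in PDGF-BB+PTUPB, 17.2 to 19.0 in PDGF-BB and 17.3 to 26.2 in Control libraries. None of 5 Schwann markers reached it, with Sox10 and Cdh19 at 0. Of 7 adventitial fibroblast markers 6 reached it (not Dpt), and their sum was 1511 to 1745 FPKM in PDGF-BB+PTUPB, 951 to 1347 in PDGF-BB and 1443 to 2437 in Control libraries. Among them Dcn had 337 to 819 FPKM, Lum 364 to 979, Scara5 123 to 344 and Pdgfra 122 to 289. The part of this shift in the chaperone results was not tested. In bulk RNA, fewer cells of a type and less RNA per cell cannot be told apart.

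The promoters of the chaperone genes are shown because their shared regulation has been mapped to short elements there in mammalian cells. The classic ER stress response element reads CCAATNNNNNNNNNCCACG, with the CCAAT part bound by NF-Y and the CCACG part by ATF6 or XBP1, and a compact second form reads ATTGGNCCACG. RefSeq promoter windows (rat build GRCr8, 250 bases before to 50 bases from the annotated start on, 300 bases) were matched by symbol for 8 of the 10 chaperones, not for Pdia3 and Pdia6. The windows of Hspa5 and Hyou1 carry the elements, and those of Dnajb9 and Pdia4, whose RNA also changed, do not; all are printed 5′ to 3′ on the strand of the gene, with the matched element parts in capitals.
Hspa5, chr3:38452766-38453065, plus strand: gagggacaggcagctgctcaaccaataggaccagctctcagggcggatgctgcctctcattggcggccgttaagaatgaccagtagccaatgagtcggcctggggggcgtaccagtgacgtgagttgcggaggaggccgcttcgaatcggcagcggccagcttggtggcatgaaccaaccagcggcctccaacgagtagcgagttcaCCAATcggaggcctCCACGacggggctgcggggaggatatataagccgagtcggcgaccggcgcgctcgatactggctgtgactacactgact
Hyou1, chr8:53602632-53602931, plus strand: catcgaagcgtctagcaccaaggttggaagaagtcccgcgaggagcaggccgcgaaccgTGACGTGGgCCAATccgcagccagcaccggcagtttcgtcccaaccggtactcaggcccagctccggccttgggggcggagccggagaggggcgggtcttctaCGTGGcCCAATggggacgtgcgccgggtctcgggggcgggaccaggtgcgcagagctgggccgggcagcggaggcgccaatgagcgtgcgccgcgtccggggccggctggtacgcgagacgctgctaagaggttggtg
Dnajb9, chr6:67002002-67002301, minus strand: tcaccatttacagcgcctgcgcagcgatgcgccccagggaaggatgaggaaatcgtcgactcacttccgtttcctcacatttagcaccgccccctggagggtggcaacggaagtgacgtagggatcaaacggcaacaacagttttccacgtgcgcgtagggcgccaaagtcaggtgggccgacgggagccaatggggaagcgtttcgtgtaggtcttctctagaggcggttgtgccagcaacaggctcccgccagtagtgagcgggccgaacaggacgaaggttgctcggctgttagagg
Pdia4, chr4:78153142-78153441, minus strand: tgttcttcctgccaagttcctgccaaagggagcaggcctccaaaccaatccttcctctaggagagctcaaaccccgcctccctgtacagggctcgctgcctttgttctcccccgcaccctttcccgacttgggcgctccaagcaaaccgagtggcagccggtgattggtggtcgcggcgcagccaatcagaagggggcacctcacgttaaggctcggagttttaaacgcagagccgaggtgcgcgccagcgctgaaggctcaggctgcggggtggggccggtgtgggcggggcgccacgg
The Hspa5 element lies 43 bases before the start. Hyou1 has the second form 188 and 88 bases before the start, both on the opposite strand, in the first of its 2 annotated windows, and the capitals TGACGTGG that overlap the first of them are the unfolded protein response element, 191 bases before the start. The remaining exact matches of the classic element are shorter, and each is given as it reads on the strand of the gene.
Hsp90b1, 176 bases before the start: CCAATcgaaaggagCCACG
Hsp90b1, 72 bases before the start, opposite strand: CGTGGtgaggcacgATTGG
Canx, 230 bases before the start: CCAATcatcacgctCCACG
Calr, 232 bases before the start, opposite strand: CGTGGtcgaccctgATTGG

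Searched on both strands, the classic element was present in the windows of 4 of 8 chaperones (Hspa5, Hsp90b1, Canx and Calr) and in 22 of all 33469 promoter windows (0.0657%). The second form was present in 1 of 8 (Hyou1) and in 17 of all windows (0.0508%), and the unfolded protein response element TGACGTGG in 1 of 8 (Hyou1) and in 199 of all windows (0.595%). A CCAAT box, which is also a part of both stress elements, was found in 8 of 8 chaperone windows and in 37.5% of all windows. Because the elements were mapped in promoters of chaperone genes, these shares are not an independent result. The chaperones are counted as 8 genes, with 9 windows, whereas the whole set is counted as windows. A match describes the letters only, and no match says only that these letters are not in this window. Of the 5 chaperones with either stress element, Hspa5 and Hyou1 fell with PDGF-BB, and Hsp90b1, Canx and Calr had log2 fold changes of -0.01, -0.22 and -0.13 that did not pass.

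**Figure D1:**
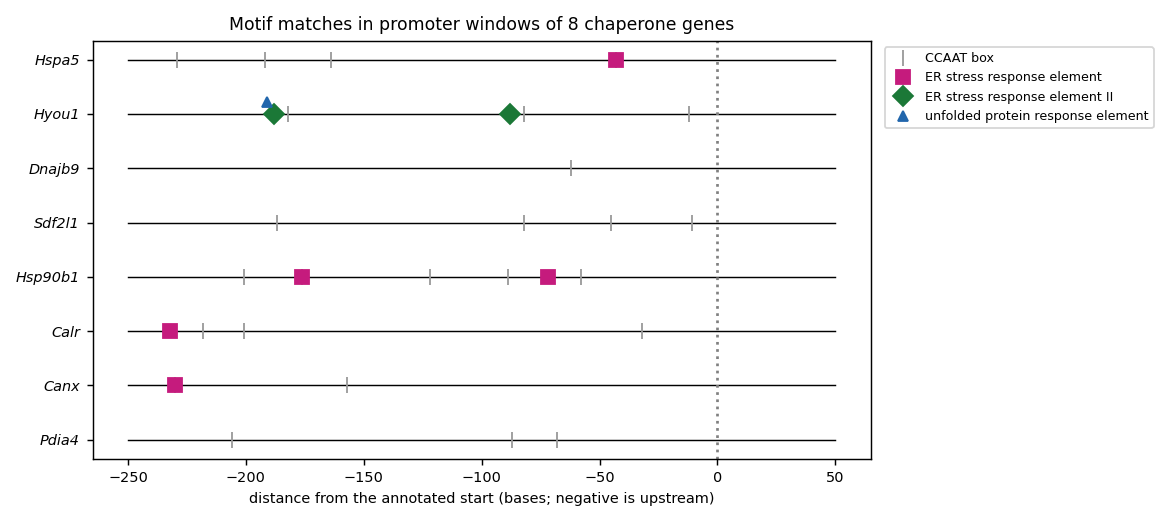
Positions of the searched elements in the promoter windows of 8 chaperone genes, as distance in bases from the annotated start; each marker is 1 match, and its shape and colour give the element. Exact stress elements are seen in Hspa5, Hsp90b1, Canx, Calr and Hyou1, and CCAAT boxes in all 8 windows.

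On the FPKM scale, which divides by exonic length and so allows levels of different genes to be compared, Calr was the highest of the 10 chaperones and Dnajb9 the lowest in all 3 groups. In PDGF-BB+PTUPB libraries Calr averaged 965 ± 26.8 FPKM and Dnajb9 25.9 ± 2.59, in PDGF-BB libraries 1131 ± 105 and 18.9 ± 2.91, and in Control libraries 1179 ± 44.0 and 28.3 ± 0.704 (SD, n = 3 each). Pdia3 was second in each group, at 708 ± 3.04, 807 ± 18.8 and 763 ± 23.8 FPKM in PDGF-BB+PTUPB, PDGF-BB and Control libraries. In Control libraries the order went on with Hspa5 (605 ± 54.2), Hsp90b1 (527 ± 5.13), Pdia6 (448 ± 13.4), Canx (289.9 ± 10.4), Pdia4 (204 ± 13.2), Hyou1 (95.4 ± 6.31) and Sdf2l1 (42.3 ± 2.67), and no 2 neighbours in this order overlapped between their 3 libraries. In PDGF-BB libraries Hspa5 stood at rank 5 with 466 ± 26.5 FPKM, below Hsp90b1 (551 ± 72.9) and Pdia6 (539 ± 26.2). Hsp90b1 (467 to 603 FPKM) overlapped with both Pdia6 and Hspa5 (444 to 496 FPKM), and Pdia4 (271 ± 9.79) overlapped with Canx (261 ± 39.9). In PDGF-BB+PTUPB libraries Hspa5 was at rank 3 with 491 ± 38.6 FPKM, overlapping with Hsp90b1 (437 ± 25.2), which overlapped with Pdia6 (418 ± 8.09).

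**Figure D2:**
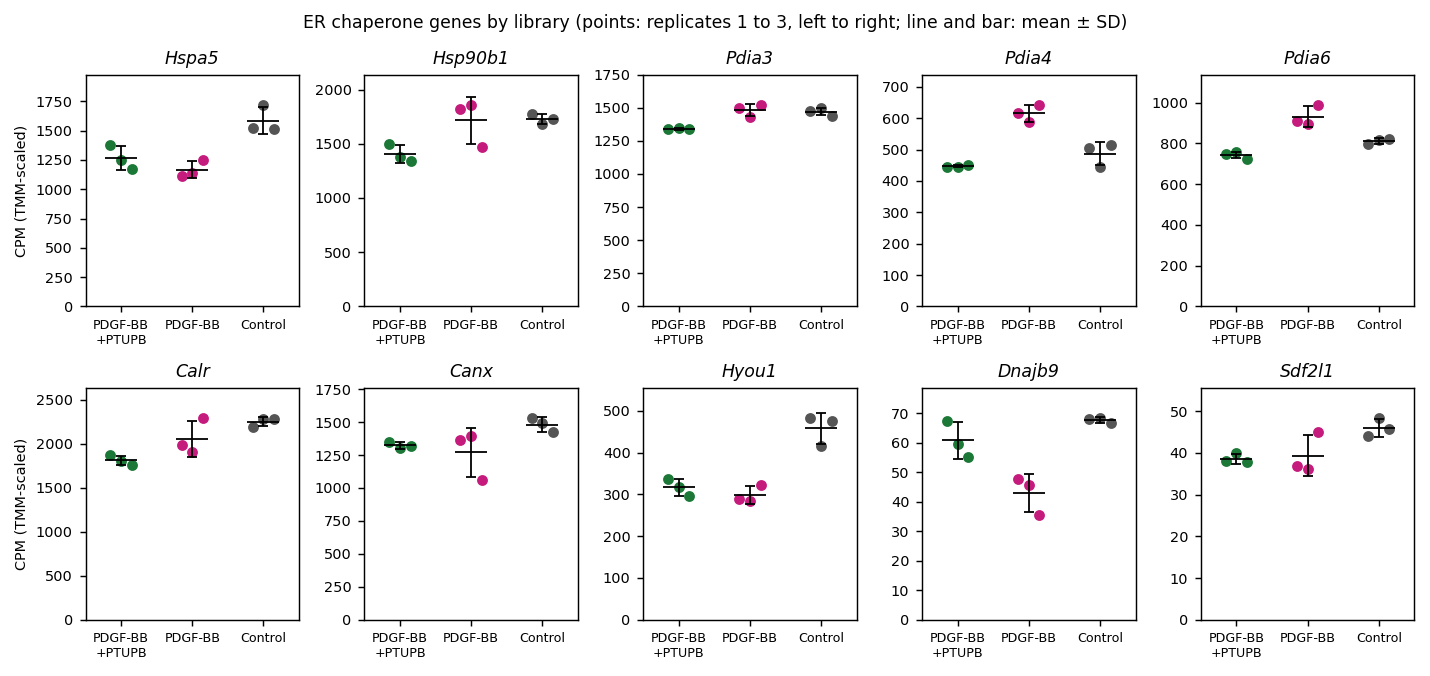
TMM-scaled CPM of each chaperone gene in every library, by group; points are replicates 1 to 3 from left to right, and the line and bar give the mean ± SD of 3 libraries. Hspa5, Hyou1 and Dnajb9 are lower in all PDGF-BB libraries than in any Control library, Pdia4 and Pdia6 are higher, and PDGF-BB replicate 3 is apart from its group for Hsp90b1, Canx, Dnajb9, Calr and Sdf2l1.

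With PDGF-BB, the RNA of BiP and of 2 of its partners was lower and that of 2 disulfide isomerases was higher than in Control cells. Hspa5, which encodes BiP, averaged 1167 ± 71.1 CPM in PDGF-BB and 1586 ± 118 in Control libraries, and its nucleotide exchange factor Hyou1 averaged 299 ± 21.4 and 458 ± 36.9 CPM. Pdia4 averaged 616 ± 27.7 CPM in PDGF-BB and 487 ± 37.4 in Control libraries (SD, n = 3 each). By edgeR's quasi-likelihood test with Benjamini-Hochberg adjustment over all genes, 2 of the 10 chaperones rose (Pdia4, Pdia6), 3 fell (Hspa5, Hyou1, Dnajb9) and 5 did not pass. Of all genes tested, 33.2% were called in this comparison, 17.3% as higher and 15.8% as lower, against 5 of the 10 chaperones. The median log2 fold change of the 10 was -0.17, against -0.02 over all genes tested. With the 2 libraries that stand apart left out, 1 rose (Pdia4) and 5 fell (Hspa5, Hyou1, Dnajb9, Calr, Sdf2l1), with 2083 genes higher and 2182 lower among all genes tested, against 1942 and 1772 with all 9 libraries.

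Hspa5 had 1116, 1137 and 1248 CPM in the PDGF-BB libraries, replicates 1 to 3, against 1521, 1722 and 1515 CPM in the Control libraries. Every PDGF-BB library was below every Control library. The log2 fold change was -0.44 ± 0.09 (SE; 95% interval -0.65 to -0.24; edgeR adjusted p = 0.00447), so Hspa5 fell by 26.4%. BiP is the Hsp70 of the ER and binds unfolded chains as well as the stress sensors themselves. Hyou1, an Hsp70-related protein that releases ADP from BiP, had 289, 284 and 324 CPM in PDGF-BB, against 483, 416 and 476 CPM in Control libraries. The groups did not overlap, and Hyou1 fell by 34.8% (log2 fold change -0.62 ± 0.09, 95% interval -0.81 to -0.42, edgeR adjusted p = 5.72e-04). Dnajb9, a J-domain co-chaperone of BiP also known as ERdj4, had 47.5, 45.8 and 35.6 CPM in PDGF-BB, against 67.9, 68.3 and 66.5 CPM in Control libraries. PDGF-BB replicate 3 was the lowest of all 9 libraries, and the other PDGF-BB libraries also lay below every Control library. Dnajb9 fell by 36.4% (log2 fold change -0.65 ± 0.12, 95% interval -0.91 to -0.39, edgeR adjusted p = 0.00215). Sdf2l1, a small partner of BiP and its J proteins, had 37.0, 36.1 and 45.1 CPM in PDGF-BB, against 44.1, 48.4 and 45.8 CPM in Control libraries. PDGF-BB replicate 3 lay within the Control range, and the log2 fold change of -0.23 ± 0.10 did not pass (edgeR adjusted p = 0.0983); without that library it was -0.33 and passed (adjusted p = 0.0105), as it did with offsets for exonic length (-0.39, 0.00234).

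Among the disulfide isomerases, which form and reshuffle disulfide bonds, Pdia4 had 617, 587 and 643 CPM in PDGF-BB, against 504, 444 and 514 CPM in Control libraries. Every PDGF-BB library was above every Control library, and Pdia4 rose by 26.4% (log2 fold change 0.34 ± 0.08, 95% interval 0.17 to 0.51, edgeR adjusted p = 0.00700). Pdia6 had 909, 894 and 989.9 CPM in PDGF-BB, against 795, 815 and 823 CPM in Control libraries. The groups did not overlap, and Pdia6 rose by 14.8% (log2 fold change 0.20 ± 0.07, 95% interval 0.04 to 0.35, edgeR adjusted p = 0.0497). That call is at the edge of the threshold. It was lost without any single library other than PDGF-BB replicate 2, with adjusted p of 0.0508 without Control replicate 2, 0.0749, 0.0758 and 0.0844 without PDGF-BB+PTUPB replicates 3, 1 and 2, 0.0883 and 0.109 without PDGF-BB replicates 1 and 3, and 0.1005 and 0.123 without Control replicates 3 and 1. Over all 20 alternatives the call was lost in 13. Pdia3, the isomerase that works with calnexin and calreticulin, had 1497, 1428 and 1522 CPM in PDGF-BB, against 1475, 1498 and 1439.8 CPM in Control libraries. The groups overlapped, and the log2 fold change was 0.01 ± 0.07 (95% interval -0.14 to 0.16; edgeR adjusted p = 0.917). The annotated span of Pdia3 overlaps that of Ppip5k1 on the opposite strand. Ppip5k1 had 777 to 1414 counts per library and Pdia3 18029 to 25145. With no stated counting strand, reads from any exonic stretch that both share cannot be told apart, and whether their exons overlap was not examined.

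Hsp90b1, the Hsp90 of the ER, had 1824, 1859 and 1468 CPM in PDGF-BB, against 1772, 1684 and 1725 CPM in Control libraries. PDGF-BB replicate 3 was the lowest of these 6 and the other PDGF-BB libraries the highest, and the log2 fold change was -0.01 ± 0.10 (95% interval -0.23 to 0.21; edgeR adjusted p = 0.959); it was 0.09 without PDGF-BB replicate 3 and 0.01 without Control replicate 1. The lectin chaperone Calr, calreticulin, which also binds calcium, had 1981, 1906 and 2293 CPM in PDGF-BB, against 2191, 2281 and 2284 CPM in Control libraries. PDGF-BB replicate 3 was the highest of these 6 libraries. The log2 fold change was -0.13 ± 0.09 (95% interval -0.32 to 0.06; edgeR adjusted p = 0.279), and with PDGF-BB replicate 3 and Control replicate 2 left out it was -0.20 and passed (adjusted p = 0.0349). Canx, its membrane-bound relative calnexin, had 1362, 1395 and 1057 CPM in PDGF-BB, against 1531, 1489.8 and 1422 CPM in Control libraries. All PDGF-BB libraries were below all Control libraries, but PDGF-BB replicate 3 was far below the other two, and the log2 fold change of -0.22 ± 0.10 did not pass (95% interval -0.45 to 0.01; edgeR adjusted p = 0.13). In all, 2 chaperones were higher and 4 lower in every PDGF-BB library than in any Control library, against 22.6% and 22% of all genes tested.

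With PTUPB before PDGF-BB, 2 disulfide isomerases were lower and 1 BiP co-chaperone was higher than with PDGF-BB alone, while BiP itself did not pass the test. Pdia4 averaged 447 ± 3.58 CPM in PDGF-BB+PTUPB and 616 ± 27.7 in PDGF-BB libraries, Pdia6 averaged 744 ± 16.5 and 931 ± 51.3 CPM, and Dnajb9 averaged 60.8 ± 6.19 and 43.0 ± 6.45 CPM (SD, n = 3 each). By edgeR's quasi-likelihood test with Benjamini-Hochberg adjustment, 1 of the 10 rose (Dnajb9), 2 fell (Pdia4, Pdia6) and 7 did not pass. DESeq2 and limma each called 3 lower, the third being Hsp90b1, and their counts over all genes are not given for this comparison. Of all genes tested, 18.3% were called, 8.28% as higher and 10% as lower. The median log2 fold change of the 10 was -0.09, against 0.01 over all genes tested. The PDGF-BB libraries are compared with Control above and are the baseline here, so a library that is high or low in that group moves the 2 comparisons in opposite directions.

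Pdia4 had 445, 444 and 451 CPM in the PDGF-BB+PTUPB libraries, against 617, 587 and 643 CPM in the PDGF-BB libraries. The 3 PDGF-BB+PTUPB libraries lay close together and below every PDGF-BB library. Pdia4 fell by 27.5% (log2 fold change -0.46 ± 0.08, 95% interval -0.63 to -0.29, edgeR adjusted p = 0.00350). Pdia6 had 748, 758 and 725 CPM in PDGF-BB+PTUPB, against 909, 894 and 989.9 CPM in PDGF-BB libraries, again without overlap, and fell by 20.2% (log2 fold change -0.32 ± 0.07, 95% interval -0.48 to -0.17, edgeR adjusted p = 0.0109). Pdia3 had 1335, 1348 and 1336 CPM in PDGF-BB+PTUPB, against 1497, 1428 and 1522 CPM in PDGF-BB libraries. Its groups did not overlap either, but the log2 fold change of -0.15 ± 0.07 did not pass (95% interval -0.30 to 0.00; edgeR adjusted p = 0.166). Pdia4, Pdia6 and Pdia3 were thus lower in every PDGF-BB+PTUPB library than in any PDGF-BB library, against 20.7% of all genes tested. Of these 3, 2 passed. Pdia5 and P4hb, of the other ER folding enzymes, were picked outside the rule for naming list genes and do not stand for that list. Pdia5 was also lower without overlap but did not pass (log2 fold change -0.44 ± 0.15, edgeR adjusted p = 0.0710). The groups overlapped for P4hb, which had a log2 fold change of 0.07 ± 0.11 (edgeR adjusted p = 0.700). For PDGF-BB against Control, P4hb had -0.11 ± 0.11 (edgeR adjusted p = 0.473), also with overlap.

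Dnajb9 had 67.4, 59.6 and 55.2 CPM in PDGF-BB+PTUPB, against 47.5, 45.8 and 35.6 CPM in PDGF-BB libraries. The groups did not overlap, and Dnajb9 rose by 41.4% (log2 fold change 0.50 ± 0.12, 95% interval 0.24 to 0.76, edgeR adjusted p = 0.0166). Without PDGF-BB+PTUPB replicate 1, the highest of the 6, the log2 fold change was 0.42 and no longer passed (adjusted p = 0.0735). Hspa5 had 1376, 1246 and 1175 CPM in PDGF-BB+PTUPB, against 1116, 1137 and 1248 CPM in PDGF-BB libraries. The groups overlapped, and the interval of the log2 fold change ran from -0.09 to 0.32 (0.12 ± 0.09, edgeR adjusted p = 0.413). Hyou1 had 337, 318 and 297 CPM in PDGF-BB+PTUPB, against 289, 284 and 324 CPM in PDGF-BB libraries, also with overlap (log2 fold change 0.09 ± 0.09, 95% interval -0.11 to 0.28, edgeR adjusted p = 0.547). Sdf2l1 had 38.0, 39.9 and 37.9 CPM in PDGF-BB+PTUPB, against 37.0, 36.1 and 45.1 CPM in PDGF-BB libraries. PDGF-BB replicate 3 was the highest of the 6, and the log2 fold change was -0.03 ± 0.10 (edgeR adjusted p = 0.872) and 0.08 without that library. Whether the response of Dnajb9 to PTUPB differed from that of Hspa5 was not tested.

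Hsp90b1 had 1498, 1376 and 1339 CPM in PDGF-BB+PTUPB, against 1824, 1859 and 1468 CPM in PDGF-BB libraries. PDGF-BB replicate 3 lay within the PDGF-BB+PTUPB range, and the log2 fold change of -0.29 ± 0.10 did not pass (95% interval -0.51 to -0.07; edgeR adjusted p = 0.0707). Without that library it was -0.39 and passed (adjusted p = 0.00996). With all 9 libraries it also passed by DESeq2 (0.0423), by limma with a pseudocount of 1 or 0.1 (0.0475 and 0.0483), with library totals (0.0415) and with length offsets (0.0236), and it passed without both libraries that stand apart (0.00223). Calr had 1868, 1803 and 1760.4 CPM in PDGF-BB+PTUPB, against 1981, 1906 and 2293 CPM in PDGF-BB libraries, without overlap, and its log2 fold change of -0.19 ± 0.09 did not pass (edgeR adjusted p = 0.166). Canx had 1352, 1301 and 1316 CPM in PDGF-BB+PTUPB, against 1362, 1395 and 1057 CPM in PDGF-BB libraries. These groups overlapped, and the log2 fold change was 0.06 ± 0.10 (edgeR adjusted p = 0.746) and -0.06 without PDGF-BB replicate 3. In all, 1 chaperone was higher and 4 were lower in every PDGF-BB+PTUPB library than in any PDGF-BB library, against 20% and 20.7% of all genes tested.

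**Figure D3:**
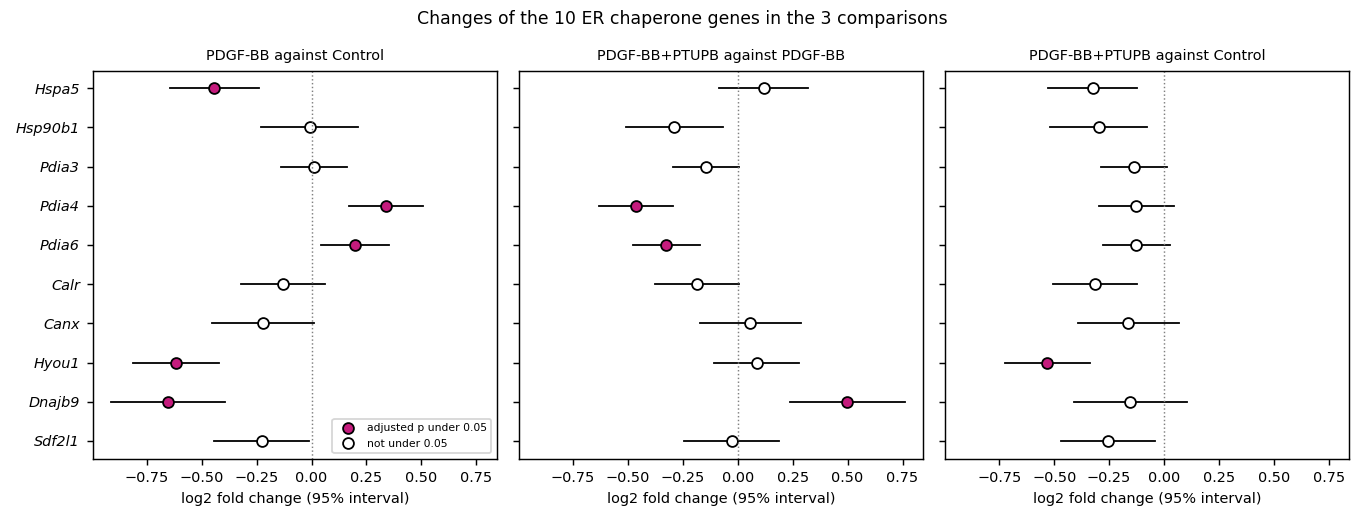
Log2 fold change of each chaperone gene in the 3 comparisons, with 95% intervals from the edgeR fit; filled points passed an adjusted p of 0.05. Pdia4 lies at 0.34 for PDGF-BB against Control and at -0.46 for PDGF-BB+PTUPB against PDGF-BB, Dnajb9 at -0.65 and 0.50, and all 10 points are below 0 for PDGF-BB+PTUPB against Control.

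In PDGF-BB+PTUPB cells set against Control cells, all 10 chaperones had a log2 fold change below 0, but only Hyou1 passed the test. Hyou1 averaged 317 ± 20.1 CPM in PDGF-BB+PTUPB and 458 ± 36.9 in Control libraries, and Hspa5 averaged 1266 ± 102 and 1586 ± 118 CPM (SD, n = 3 each). By edgeR's quasi-likelihood test with Benjamini-Hochberg adjustment, 1 of the 10 fell and 0 rose, and of all genes tested 2.21% were called, 1.89% as higher and 0.313% as lower. At an unadjusted p under 0.05 the counts were 0 higher and 5 lower, and the share of all genes at that threshold was not computed. DESeq2 called 0 and 3, against 328 higher and 113 lower among all genes tested. Limma called 0 and 1, against 22 lower among all genes tested. The median log2 fold change of the 10 was -0.21, against -0.01 over all genes tested. Of the 10, 8 were lower in every PDGF-BB+PTUPB library than in any Control library and 0 higher, against 9.38% and 12.1% of all genes tested.

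Hyou1 fell by 30.8% (log2 fold change -0.53 ± 0.09, 95% interval -0.73 to -0.34, edgeR adjusted p = 0.0125), and every PDGF-BB+PTUPB library was below every Control library. It no longer passed when Control replicate 3 (adjusted p = 0.0612) or PDGF-BB+PTUPB replicate 2 (0.0723) or 3 (0.0755) was left out, with log2 fold changes of -0.50, -0.53 and -0.49. Hspa5 had a log2 fold change of -0.32 ± 0.09 (95% interval -0.53 to -0.12; edgeR adjusted p = 0.124), Calr of -0.31 ± 0.09 (-0.51 to -0.12; 0.115) and Hsp90b1 of -0.30 ± 0.10 (-0.52 to -0.08; 0.213), each without overlap of the groups. Calr passed without PDGF-BB replicate 3 (adjusted p = 0.0336), a library of neither group, which shares the fit. By DESeq2, Hspa5 and Calr also passed (adjusted p = 0.0213 and 0.00818), and with length offsets Calr and Sdf2l1 did (0.0300 and 0.0386). Sdf2l1 had a log2 fold change of -0.26 ± 0.10 (edgeR adjusted p = 0.283), Canx of -0.16 ± 0.10 (0.553), Pdia3 of -0.13 ± 0.07 (0.421) and Pdia6 of -0.13 ± 0.07 (0.48), again without overlap. Dnajb9 and Pdia4 were the chaperones whose PDGF-BB+PTUPB and Control libraries overlapped, with log2 fold changes of -0.15 ± 0.12 (95% interval -0.41 to 0.10; edgeR adjusted p = 0.628) and -0.13 ± 0.08 (-0.29 to 0.04; 0.527). A p that misses the threshold does not show that their levels were equal. With Control replicate 2 and PDGF-BB replicate 3 left out, the test called 5 of the 10 lower (Hspa5, Hsp90b1, Pdia4, Calr and Hyou1), with 650 genes higher and 695 lower among all genes tested, against 212 and 35 with all 9 libraries. Since leaving out deviating libraries can lower the spread by selection, the calls gained here are taken as weaker evidence than calls with all 9.

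The 10 genes together took 0.847 to 0.900% of the counts in PDGF-BB+PTUPB, 0.979 to 0.992% in PDGF-BB and 0.998 to 1.04% in Control libraries. Their summed level was 8750 ± 290 CPM in PDGF-BB+PTUPB, 9625 ± 53.4 in PDGF-BB and 10387 ± 78.3 in Control libraries (SD, n = 3 each), and the groups did not overlap on this scale. In summed FPKM, PDGF-BB libraries (4101 to 4232) overlapped with Control libraries (4090 to 4301), and PDGF-BB+PTUPB libraries (3513 to 3711) lay below both. Within a library, the FPKM of Pdia4 divided by that of Hspa5 was 0.355 to 0.422 in PDGF-BB+PTUPB, 0.567 to 0.608 in PDGF-BB and 0.284 to 0.373 in Control libraries. Pdia6 divided by Hspa5 was 0.787 to 0.894 in PDGF-BB+PTUPB, 1.14 to 1.18 in PDGF-BB and 0.686 to 0.787 in Control libraries. Both ratios were higher in every PDGF-BB library than in any other library. Hyou1 divided by Hspa5 was 0.134 to 0.139 in PDGF-BB+PTUPB, 0.137 to 0.142 in PDGF-BB and 0.132 to 0.174 in Control libraries, where replicate 2 was the low one. Hspa5 made up 13.0 to 14.4% of the summed FPKM of the 10 in PDGF-BB+PTUPB, 10.8 to 11.7% in PDGF-BB and 13.9 to 15.5% in Control libraries. Since the genes were picked with earlier results known, these ratios are descriptions without a test.

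**Figure D4:**
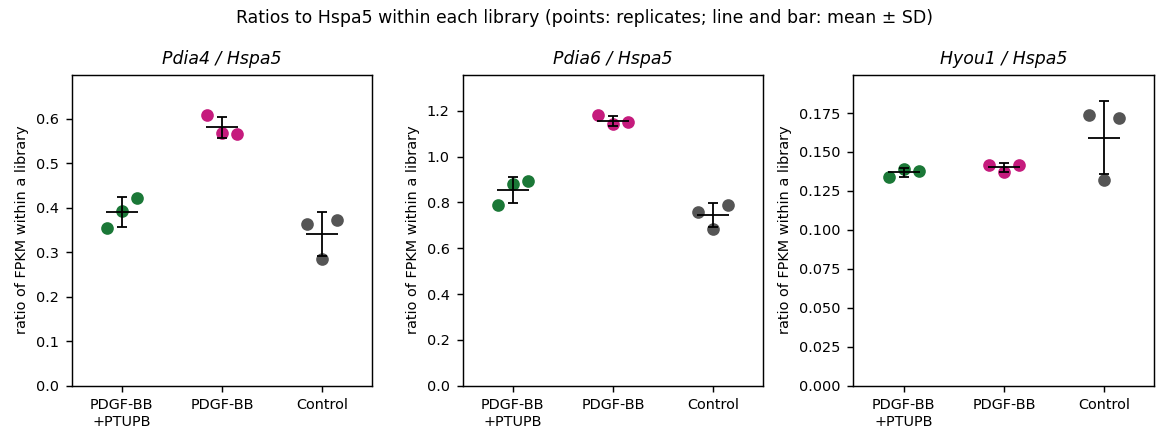
Ratio of FPKM within each library for Pdia4, Pdia6 and Hyou1 over Hspa5, by group; points are replicates, and the line and bar give the mean ± SD of 3 libraries. The Pdia4 ratio lies between 0.567 and 0.608 in PDGF-BB libraries, above all PDGF-BB+PTUPB and Control libraries, while the Hyou1 ratio overlaps between groups.

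The chaperones did not all vary together across the 9 libraries, although some pairs did. On the log2(CPM + 1) scale, Pearson's r with Hspa5 was 0.89 for Hyou1, 0.83 for Sdf2l1, 0.70 for Dnajb9 and 0.65 for Calr, and it was 0.49 for Canx, 0.24 for Pdia3, 0.17 for Hsp90b1, -0.26 for Pdia6 and -0.48 for Pdia4. Pdia4 and Pdia6 had an r of 0.93 with each other and of -0.82 and -0.78 with Dnajb9. Outside the 10, the genes most like Hspa5 were Gpd1l (0.97), Npas2 (0.96), Cxcl3 (0.96), C6 (0.95) and Prl6a1 (0.95). All of them, like Hspa5, were highest in Control replicate 2, a library that stands apart, and Prl6a1 had only 0.54 to 2.42 FPKM. The correlations describe 9 libraries in 3 groups that share the group differences and the library effects, and they carry no test.

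The related lists of genes around the chaperones were read from the same fit: 8 lists with 142 symbols, of which 137 were in the file and 133 were tested. With PDGF-BB, 26 of the 133 rose and 13 fell, against 17.3% and 15.8% of all genes tested; with PTUPB before PDGF-BB, 9 rose and 16 fell relative to PDGF-BB, against 8.28% and 10%. In PDGF-BB+PTUPB against Control, 1 of 133 rose and 0 fell by edgeR, against 1.89% and 0.313%. At an unadjusted p under 0.05 there were 8 and 11, DESeq2 called 5 and 1, and limma 3 and 0. The shares of all genes printed beside the lists are those of edgeR with all 9 libraries. List counts at an unadjusted p, by DESeq2 or by limma stand without such a share and are not read as results about the lists. With the 2 libraries that stand apart left out, 28 of the list genes rose and 21 fell with PDGF-BB, 17 rose and 23 fell with PTUPB before PDGF-BB, and 9 rose and 11 fell in PDGF-BB+PTUPB against Control. Of all 11197 genes tested, 2083 were then higher and 2182 lower with PDGF-BB. The counts were 1377 and 1441 with PTUPB before PDGF-BB, and 650 and 695 in PDGF-BB+PTUPB against Control. Scaled by library totals, all genes tested split into 2410 higher and 1350 lower for PDGF-BB against Control, against 1942 and 1772 with TMM scaling. For PDGF-BB+PTUPB against PDGF-BB they split into 759 higher and 1414 lower, against 927 and 1121 with TMM scaling.

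ER-associated degradation, which moves misfolded proteins out of the ER to the proteasome, had members called in both comparisons, while its median stayed near 0. Of 19 tested, 0 rose and 5 fell with PDGF-BB by edgeR, against 17.3% and 15.8% of all genes (median log2 fold change 0.01; 3 higher at an unadjusted p under 0.05, 1 by DESeq2 and 4 by limma). Relative to PDGF-BB alone, 4 rose and 0 fell with PTUPB, against 8.28% and 10% of all genes (median -0.04; 1 lower at an unadjusted p under 0.05 and 0 by DESeq2 and limma). Without the 2 libraries that stand apart, 0 were higher and 6 lower with PDGF-BB, and 5 higher and 0 lower with PTUPB. Herpud1, an ER stress-induced adaptor of the degradation complex, had 145, 158 and 148 CPM in PDGF-BB+PTUPB, 96.8, 97.3 and 104 in PDGF-BB and 147, 142 and 135 in Control libraries. Every PDGF-BB library was below all others. The log2 fold change was -0.51 ± 0.07 for PDGF-BB against Control (edgeR adjusted p = 4.87e-04) and 0.60 ± 0.07 for PDGF-BB+PTUPB against PDGF-BB (9.39e-04). Sel1l, the scaffold of the HRD1 ligase complex, had 294, 297 and 278 CPM in PDGF-BB+PTUPB, 216, 226 and 201 in PDGF-BB and 353, 321 and 306 in Control libraries, with log2 fold changes of -0.61 ± 0.08 (edgeR adjusted p = 3.10e-04) and 0.43 ± 0.08 (0.00538). The lectins Os9 and Erlec1, which hand glycoproteins to that complex, also fell with PDGF-BB (log2 fold changes -0.52 ± 0.07 and -0.29 ± 0.07; edgeR adjusted p = 4.53e-04 and 0.0141) and rose with PTUPB before PDGF-BB (0.35 ± 0.07 and 0.39 ± 0.07; 0.00919 and 0.00677). The fall of Erlec1 was lost without PDGF-BB replicate 2 (adjusted p = 0.0559) and with only the 2 groups compared (0.0595). Because the PDGF-BB libraries enter both comparisons, the 2 values of a gene are not independent.

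The translocation machinery, which threads new chains into the ER and cleaves signal peptides, had 17 tested genes. Of these, 6 rose and 0 fell with PDGF-BB by edgeR, against 17.3% and 15.8% of all genes (median log2 fold change 0.14; 1 lower at an unadjusted p under 0.05 and 0 by DESeq2 and limma). With PTUPB before PDGF-BB, 0 rose and 5 fell, against 8.28% and 10% (median -0.19; 0 higher at an unadjusted p under 0.05 and by DESeq2 and limma). The counts without the 2 libraries that stand apart were 7 higher and 0 lower with PDGF-BB, and 0 higher and 6 lower with PTUPB. Ssr1, a subunit of the translocon-associated protein complex, had 259.7, 259 and 275 CPM in PDGF-BB+PTUPB, 411, 416 and 429.7 in PDGF-BB and 302, 264 and 254 in Control libraries. Every PDGF-BB library was above all others, with log2 fold changes of 0.62 ± 0.08 for PDGF-BB against Control (edgeR adjusted p = 2.81e-04) and -0.66 ± 0.08 for PDGF-BB+PTUPB against PDGF-BB (9.39e-04). The channel subunits Sec61b and Sec61g and the signal peptidase subunit Sec11c rose with PDGF-BB by 0.63 ± 0.10, 0.70 ± 0.13 and 0.65 ± 0.12 on the log2 scale (edgeR adjusted p = 0.00140, 0.00224 and 0.00227). With PTUPB before PDGF-BB, Sec11c, Ssr2 and Sec61b fell by 0.66 ± 0.12, 0.49 ± 0.10 and 0.47 ± 0.10 on the log2 scale (edgeR adjusted p = 0.00508, 0.00937 and 0.0124), and the fall of Sec61b was lost without PDGF-BB+PTUPB replicate 1 (adjusted p = 0.0512) or 2 (0.0585).

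The KDEL receptors, which return escaped ER chaperones from the Golgi, and the genes of cargo export had 15 tested genes. With PDGF-BB, 3 rose and 0 fell by edgeR, against 17.3% and 15.8% of all genes, so the count that rose was close to that share (median log2 fold change 0.12; 0 lower at an unadjusted p under 0.05 and by DESeq2 and limma), and 0 rose and 5 fell with PTUPB before PDGF-BB, against 8.28% and 10% (median -0.21; 0 higher at an unadjusted p under 0.05 and by DESeq2 and limma). Leaving out the 2 libraries that stand apart gave 3 higher and 1 lower with PDGF-BB, and 0 higher and 8 lower with PTUPB. Kdelr2 had 195, 198 and 196 CPM in PDGF-BB+PTUPB, 253, 259 and 300.3 in PDGF-BB and 214, 184 and 189 in Control libraries. All PDGF-BB libraries were above all others, with log2 fold changes of 0.47 ± 0.09 (edgeR adjusted p = 0.00241) and -0.47 ± 0.09 (0.00585). Sec13, a subunit of the COPII coat, and Kdelr3 rose with PDGF-BB by 0.52 ± 0.09 and 0.50 ± 0.11 on the log2 scale (edgeR adjusted p = 0.00142 and 0.00657). With PTUPB before PDGF-BB, Sec13, Kdelr3 and the cargo receptor Surf4 fell by 0.46 ± 0.09, 0.41 ± 0.11 and 0.34 ± 0.09 on the log2 scale (edgeR adjusted p = 0.00658, 0.0295 and 0.0262). The fall of Kdelr3 was lost without PDGF-BB replicate 3 (adjusted p = 0.0548) or PDGF-BB+PTUPB replicate 1 (0.117) or 2 (0.0828), and that of Surf4 without PDGF-BB replicate 3 (0.0504) or PDGF-BB+PTUPB replicate 1 (0.0855), 2 (0.0699) or 3 (0.0822). Kdelr3 was also lost with only the 2 groups compared (0.0540), and Surf4 with the replicate block (0.0514).

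The other folding enzymes and co-chaperones of the ER had 29 tested genes, of which 7 rose and 0 fell with PDGF-BB by edgeR, against 17.3% and 15.8% of all genes (median log2 fold change 0.09; 0 lower at an unadjusted p under 0.05 and by DESeq2 and limma). Set against PDGF-BB alone, 1 rose and 3 fell with PTUPB, against 8.28% and 10% (median -0.06). When the 2 libraries that stand apart were left out, 7 were higher and 2 lower with PDGF-BB, and 2 higher and 5 lower with PTUPB. Erp29, a PDI-like escort factor, had 61.0, 65.4 and 62.8 CPM in PDGF-BB+PTUPB, 94.9, 103 and 104 in PDGF-BB and 59.3, 53.0 and 61.1 in Control libraries. The PDGF-BB libraries stood above all others, with log2 fold changes of 0.80 ± 0.08 (edgeR adjusted p = 7.82e-05) and -0.67 ± 0.08 (9.98e-04). Prdx4, an ER peroxiredoxin, rose with PDGF-BB by 0.58 ± 0.10 on the log2 scale (edgeR adjusted p = 0.00212), Pdia5 by 0.63 ± 0.15 (0.00972) and the prolyl isomerase Fkbp2 by 0.44 ± 0.12 (0.0210), and the call of Fkbp2 was lost without Control replicate 1 (0.0761) or PDGF-BB replicate 1 (0.0586) or 3 (0.0583) and with length offsets (log2 fold change 0.23, 0.0954). With PTUPB before PDGF-BB, the BiP co-chaperone Dnajb11 fell by 0.41 ± 0.07 on the log2 scale (edgeR adjusted p = 0.00561) and Prdx4 by 0.43 ± 0.10 (0.0177), while the oxidase Ero1a rose by 0.29 ± 0.07 (0.0180). The call of Prdx4 was lost without PDGF-BB replicate 1 (0.0505) or PDGF-BB+PTUPB replicate 1 (0.0764) or 3 (0.0520), and that of Ero1a without PDGF-BB replicate 1 (0.0585) or PDGF-BB+PTUPB replicate 1 (0.0681) or 2 (0.0828). Among the 12 tested genes of collagen folding, 5 rose and 1 fell with PDGF-BB, against 17.3% and 15.8% of all genes (median 0.21). With PTUPB before PDGF-BB, 1 rose and 1 fell, against 8.28% and 10%, which is close to those shares (median -0.04). Without the 2 libraries that stand apart, 3 rose and 1 fell in the latter comparison. Fkbp10, P4ha1 and Rcn3 rose with PDGF-BB by 0.54 ± 0.08, 0.39 ± 0.08 and 0.34 ± 0.08 on the log2 scale (edgeR adjusted p = 9.67e-04, 0.00403 and 0.00824). The prolyl hydroxylase subunit P4ha2 went the other way, with log2 fold changes of -0.29 ± 0.07 for PDGF-BB against Control (edgeR adjusted p = 0.00902) and 0.41 ± 0.07 for PDGF-BB+PTUPB against PDGF-BB (0.00410). P3h1 fell with PTUPB before PDGF-BB by 0.27 ± 0.07 on the log2 scale (edgeR adjusted p = 0.0317), a call lost without Control replicate 3 (0.0533), PDGF-BB replicate 1 (0.0525) or PDGF-BB+PTUPB replicate 1 (0.0827), 2 (0.0943) or 3 (0.101) and in 3 further alternatives (no low-value filter 0.0577, only the 2 groups compared 0.0520, replicate block 0.0665).

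Of the 18 sensors and factors of the unfolded protein response, 0 rose and 3 fell with PDGF-BB by edgeR, against 17.3% and 15.8% of all genes, so the count that fell was close to that share (median log2 fold change -0.11; 4 lower by DESeq2 and 1 by limma; 0 higher at an unadjusted p under 0.05 and by DESeq2 and limma). Compared with PDGF-BB alone, 1 rose and 0 fell with PTUPB, against 8.28% and 10% (median 0.12; 3 higher by DESeq2 and 0 by limma; 1 lower at an unadjusted p under 0.05 and 0 by DESeq2 and limma). Excluding the 2 libraries that stand apart gave 0 higher and 5 lower with PDGF-BB, and 4 higher and 0 lower with PTUPB. Ern1, which encodes the sensor IRE1, had 58.5, 62.1 and 50.4 CPM in PDGF-BB+PTUPB, 49.2, 46.9 and 43.3 in PDGF-BB and 58.6, 56.2 and 60.1 in Control libraries. All PDGF-BB libraries were below all others, and the log2 fold change against Control was -0.33 ± 0.09 (edgeR adjusted p = 0.0240). It did not pass without Control replicate 1 (0.0590) or 3 (0.0770) or PDGF-BB replicate 2 (0.0603) or 3 (0.0557), with library totals (0.0592), with limma at either pseudocount (0.0841 and 0.0818), with only the 2 groups compared (0.0518) or with length offsets, where the log2 fold change was -0.0578 (0.676). Wfs1, an ER membrane protein induced by the response, fell with PDGF-BB by 0.70 ± 0.12 on the log2 scale (edgeR adjusted p = 0.00181) and rose with PTUPB before PDGF-BB by 0.40 ± 0.12 (0.0485). The rise of Wfs1 was lost without Control replicate 1 (0.0535) or 3 (0.0683), PDGF-BB replicate 1 (0.120) or 2 (0.134) or PDGF-BB+PTUPB replicate 1 (0.122), 2 (0.128) or 3 (0.1002), and in 7 further alternatives (adjusted p 0.0509 to 0.0829). Mbtps1, the protease that activates ATF6, fell with PDGF-BB by 0.20 ± 0.07 on the log2 scale (edgeR adjusted p = 0.0493), and this call was lost without Control replicate 1 (0.101), 2 (0.0587) or 3 (0.124), PDGF-BB replicate 2 (0.175) or 3 (0.0671) or PDGF-BB+PTUPB replicate 1 (0.0754), 2 (0.0829) or 3 (0.0682). It was also lost with library totals and with limma at a pseudocount of 1 or 0.1 (log2 fold changes -0.13, -0.12 and -0.13; 0.167, 0.163 and 0.163), with length offsets (-0.0535; 0.606) and in 4 further alternatives (0.0595 to 0.154). The transcript levels of the sensors Eif2ak3 and Atf6 and of Xbp1, Atf4 and Ddit3 did not pass with PDGF-BB, with log2 fold changes of -0.09, -0.27, -0.20, -0.12 and -0.03 (edgeR adjusted p = 0.368, 0.072, 0.103, 0.482 and 0.903); these 5 were picked after their values were seen, as the best-known factors of the response. Splicing of Xbp1 and cleavage of ATF6 are not measured by gene counts.

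The chaperones of the cytosol and mitochondria lie outside the ER. Of 15 tested, 4 rose and 2 fell with PDGF-BB, against 17.3% and 15.8% of all genes (median log2 fold change -0.02; 5 and 3 without the 2 libraries that stand apart). With PTUPB before PDGF-BB, 1 rose and 2 fell, against 8.28% and 10% (median -0.03; 2 and 2 without those 2 libraries). Hsp90aa1, a cytosolic Hsp90, had 26.0, 57.2 and 56.8 CPM in PDGF-BB+PTUPB, 61.9, 98.1 and 73.2 in PDGF-BB and 12.1, 10.8 and 10.6 in Control libraries. PDGF-BB+PTUPB replicate 1 was lower than the other two of its group, and all treated libraries were above all Control libraries. The log2 fold change was 2.80 ± 0.29 for PDGF-BB against Control (edgeR adjusted p = 8.77e-05) and 2.06 ± 0.29 for PDGF-BB+PTUPB against Control (0.00520), the 1 list gene called in that comparison; reads shared with near-identical copies of this gene were not examined. The mitochondrial chaperones Hspd1 and Trap1 rose with PDGF-BB by 0.65 ± 0.06 and 0.53 ± 0.08 on the log2 scale (edgeR adjusted p = 6.33e-05 and 6.45e-04) and fell with PTUPB before PDGF-BB by 0.52 ± 0.06 and 0.40 ± 0.08 (0.00106 and 0.00660). Hsph1, a cytosolic exchange factor of the Hsp110 family, fell with PDGF-BB by 0.76 ± 0.12 on the log2 scale (edgeR adjusted p = 0.00116) and rose with PTUPB before PDGF-BB by 0.63 ± 0.12 (0.00730). Among the 8 tested ER calcium pumps and channels, 1 rose and 2 fell with PDGF-BB, against 17.3% and 15.8% of all genes (median 0.04). Without the 2 libraries that stand apart, 1 rose and 3 fell. With PTUPB before PDGF-BB, 1 rose and 0 fell by edgeR, against 8.28% and 10% (median -0.05). In that comparison 1 was lower at an unadjusted p under 0.05, by DESeq2, by limma and without those 2 libraries. The IP3 receptor Itpr2 and the calcium pump Atp2a2 fell with PDGF-BB by 1.45 ± 0.21 and 0.39 ± 0.08 on the log2 scale (edgeR adjusted p = 5.69e-04 and 0.00593), and the calcium sensor Stim2 rose by 0.41 ± 0.08 (0.00435). With length offsets the log2 fold change of Atp2a2 was -0.12 and its call was lost (adjusted p = 0.370). Itpr2 rose with PTUPB before PDGF-BB by 0.91 ± 0.21 on the log2 scale (edgeR adjusted p = 0.0148), a call lost without PDGF-BB+PTUPB replicate 1 (0.0639).

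**Figure D5:**
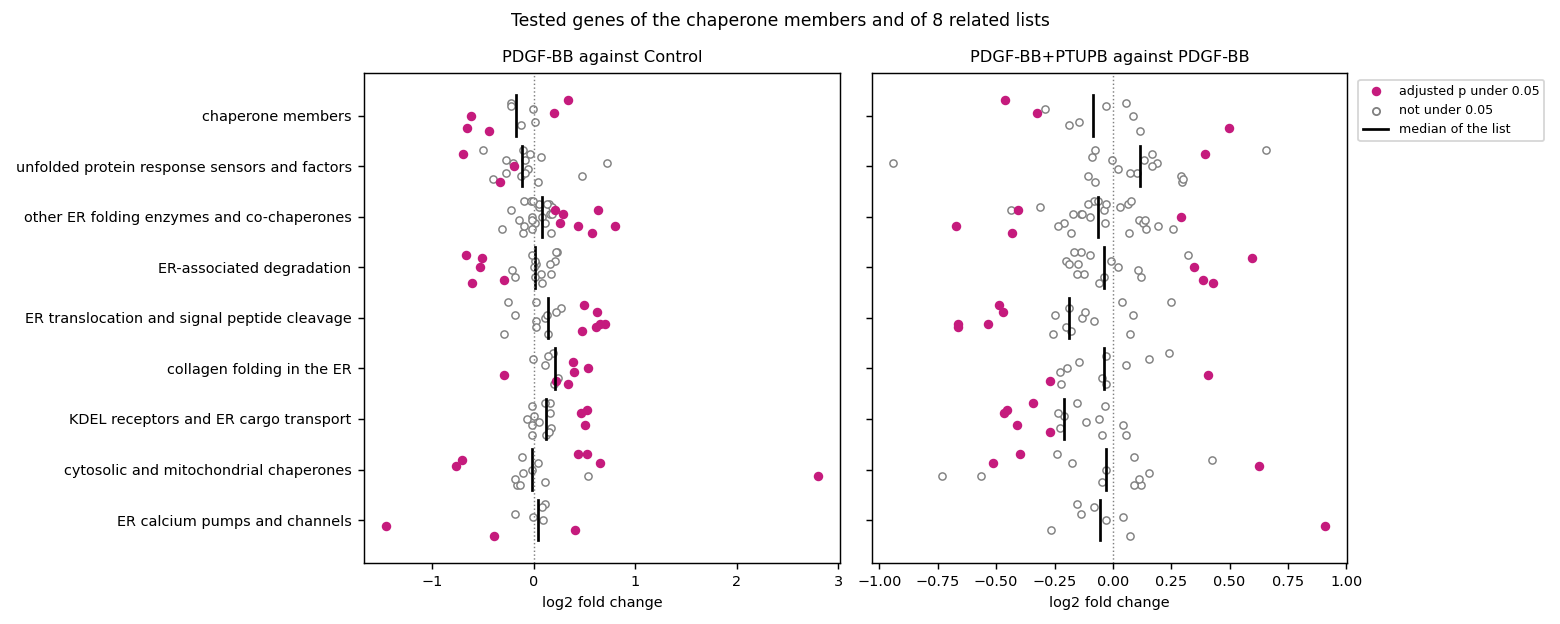
Log2 fold change of each tested gene of the chaperones and of the 8 related lists, for PDGF-BB against Control (left) and PDGF-BB+PTUPB against PDGF-BB (right); filled points passed an adjusted p of 0.05, and vertical bars mark the median of each list. The 6 called translocation genes lie above 0 on the left and the 5 called ones below 0 on the right, and the called degradation genes lie below 0 on the left (5) and above it on the right (4).

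In PDGF-BB+PTUPB against Control, the most abundant genes of the lists with no call had log2 fold changes between -0.32 and 0.19, and none of them passed. Atf4 and Creb3l1 of the unfolded protein response list had log2 fold changes of 0.17 ± 0.13 and -0.04 ± 0.07 (edgeR adjusted p = 0.627 and 0.867). P4hb and Ppib among the other folding enzymes had log2 fold changes of -0.04 ± 0.11 and 0.05 ± 0.09, Vcp and Selenos of degradation at 0.06 ± 0.08 and -0.10 ± 0.11, and Sec61g and Sec61b of translocation at 0.16 ± 0.13 and 0.15 ± 0.10. Serpinh1, the collagen chaperone, and Plod2, a lysyl hydroxylase, had log2 fold changes of -0.02 ± 0.09 and 0.19 ± 0.12, Kdelr1 and Kdelr2 at 0.08 ± 0.08 and 0.00 ± 0.09, and Tmbim6 and Atp2a2 of the calcium list at 0.06 ± 0.07 and -0.32 ± 0.08. Atp2a2 had an adjusted p of 0.108 with all libraries, 0.0327 without Control replicate 2 and 0.0213 by DESeq2. The median log2 fold change of the 12 tested collagen folding genes was 0.17, against -0.01 over all genes tested, and 10 were above 0. By edgeR 0 passed, and at an unadjusted p under 0.05 there were 4 higher and 0 lower. DESeq2 called 3 and 0, against 328 and 113 among all genes tested, and limma 2 and 0. Medians of the other lists with no call lay between -0.05 and 0.07.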

How the data were processed

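RNA was measured in 9 libraries of rat aortic smooth muscle cells. Per the labels' protocols, poly(A) RNA from TRIzol extracts was primed at random and sequenced as paired ends. Per the submitters' processing notes, cutadapt 1.9.1, HISAT2 2.0.1 and HTSeq 0.6.1 were used; the notes name the mouse build mm10, whereas all 32623 identifiers are rat Ensembl identifiers, so no coordinates of the files are given, and the strand used for counting is not given in the sources used here. The authors deposited an expected count per gene and library, which is fractional somewhere in 978 genes. The authors also deposited FPKM; dividing the counts by exonic length and library size gave the deposited FPKM within 0.01 for 100% of values. No other columns of per-sample values were left aside (0). Groups were taken from the sample labels.

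Counts were rounded and fitted with edgeR 4.0.16 in R 4.3.3 (TMM scaling, quasi-likelihood F test, two-sided, a term for group, the 9 libraries fitted together with 6 residual degrees of freedom, biological coefficient of variation 0.137). The 11197 genes at or above an FPKM of 1 in 3 or more libraries were tested, and p-values were adjusted by Benjamini-Hochberg over all of them, with a threshold of 0.05. CPM are TMM-scaled. Promoters come from RefSeq, build GRCr8. The alternatives were other scalings, DESeq2 1.42.0, limma 3.58.1 on log2(FPKM + 1) and log2(FPKM + 0.1), other filters, only the 2 groups compared, the replicate number as a block, each library left out, both libraries that stand apart left out, and offsets for exonic length. The test was also run on simulated counts with 1 common spread for all genes, for PDGF-BB against Control. It recovered 23 of 100 genes changed by 0.5 on the log2 scale and 95 of 100 changed by 1, and called 10 unchanged genes. Far fewer genes were changed there than the 33.2% called for PDGF-BB against Control in the data, and 1 common spread is not that of each chaperone. The recovered counts therefore do not give the power for the chaperones, of which Pdia6 was called at a log2 fold change of 0.20. A change that missed the threshold is not thereby shown to be absent.

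The members and lists were chosen with earlier results of these data known. From each list the text names up to 4 called genes per comparison by smallest p, or the 2 most abundant where none was called, and from the likeness to Hspa5 the 5 closest genes. Named outside this rule were Pdia5 and P4hb beside the disulfide isomerases, and Eif2ak3, Atf6, Xbp1, Atf4 and Ddit3 with PDGF-BB.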

Additional observations from a re-analysis of the deposited data

How the results depend on the processing

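Over 20 alternatives, 545 of 600 values of the chaperones (10 genes in 3 comparisons) kept their direction and their side of the threshold, 17 lost the call, 20 gained one and 18 changed direction; of 1340 values of named list genes, 1251 kept both, 72 lost the call, 3 gained one and 14 changed direction. For PDGF-BB against Control, 1 chaperone was called higher instead of 2 with no low-value filter, with only the 2 groups compared, with the replicate block, without both libraries that stand apart and with length offsets, and 1 to 2 were with 1 library left out; 5 instead of 3 were called lower without both libraries that stand apart. For PDGF-BB+PTUPB against PDGF-BB, 0 to 1 were higher with 1 library left out. For PDGF-BB+PTUPB against Control, 3 instead of 1 were lower with DESeq2, 5 without both libraries that stand apart, 3 with length offsets and 0 to 2 with 1 library left out. Among all genes, PDGF-BB lowered 1154 with only the 2 groups compared, against 1772. PDGF-BB+PTUPB against PDGF-BB gave 462 higher and 540 lower without PDGF-BB+PTUPB replicate 1, 495 and 614 without replicate 2 and 615 and 716 without replicate 3, against 927 and 1121. PDGF-BB+PTUPB against Control gave 328 higher and 113 lower with DESeq2, 22 lower with limma and 650 and 695 without both libraries that stand apart, against 212 and 35; lower genes numbered 23, 147 and 15 without Control replicates 1, 2 and 3, 17, 22 and 66 without PDGF-BB replicates 1, 2 and 3, and 3 without PDGF-BB+PTUPB replicate 2 or 3; without Control replicate 3 or PDGF-BB+PTUPB replicate 2 or 3, 111, 91 and 90 were higher. The cause was not tested.

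Changes of direction were of small log2 values. For PDGF-BB against Control, Hsp90b1 was at 0.0625 with library totals, 0.0536 with either limma fit, 0.0191 with only the 2 groups compared, 0.0749 without both libraries that stand apart, 0.0598 with length offsets and -0.0552 to 0.0926 with 1 library left out, and Pdia3 at -0.0366 with length offsets and -0.00858 to 0.0498 with 1 library left out. For PDGF-BB+PTUPB against PDGF-BB, Canx was at -0.0588 without both libraries that stand apart, -0.0333 with length offsets and -0.0588 to 0.116 with 1 library left out. In the same comparison, Sdf2l1 was at 0.0797 without both, 0.0531 with length offsets and -0.0977 to 0.0795 with 1 left out, and Hyou1 at -0.0130 with length offsets. For PDGF-BB+PTUPB against Control, P4hb was at 0.0675 without both and -0.105 to 0.0675 with 1 left out, and Ppib at -0.0408 with length offsets. Kdelr2 was at -0.0385 without both, -0.0352 with length offsets and -0.0388 to 0.0709 with 1 left out. Serpinh1 was at 0.00271 with library totals, 0.00436 and 0.00437 with limma and a pseudocount of 1 or 0.1, 0.0131 without both and -0.0553 to 0.0131 with 1 left out.

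With the replicate number as a block, 1 chaperone was called higher and 3 lower for PDGF-BB against Control, the loss being Pdia6 (adjusted p = 0.0955), and no other chaperone call changed; among all genes, 23 instead of 35 were lower for PDGF-BB+PTUPB against Control. Libraries with the same number correlated in their deviations at -0.28 to 0.11 for PDGF-BB against Control. The range was -0.09 to 0.19 for PDGF-BB+PTUPB against PDGF-BB and -0.09 to -0.01 for PDGF-BB+PTUPB against Control. Libraries with different numbers correlated at -0.28 to 0.27, -0.19 to 0.15 and -0.04 to 0.08 in the same order. The ranges overlapped, and with 3 libraries per group they cannot show whether equal numbers share a culture or a rat.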
